A study of Notamacropus eugenii with 7 samples.

Results

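Milk miRNAs of the tammar wallaby (Notamacropus eugenii) were compared between day 175 of lactation, labelled as phase 2B, and day 250, labelled as phase 3. All miRNAs listed in the milk library of either day were taken, which gave 91 of the 102 miRNAs listed anywhere in the series. Each day is represented by 1 small RNA library, made from skim milk of several lactating females that was pooled before RNA extraction. The milk had been collected under anaesthesia by injection or inhalation, after oxytocin had been given to induce letdown. The animals came from more than one colony, and which anaesthetic and colony belong to which day is not given in the sources used here. The series also holds milk libraries of days 35, 75 and 120 and serum libraries of days 120 and 175. They are used here as levels beside the 2 libraries compared and for the earlier steps between milk libraries. Those of day 120 also serve to group miRNAs by their share in serum and milk. The milk library of day 120 is in addition an alternative to that of day 175. The study's text and tables partly give other days for the libraries labelled 75 and 120, and the labels are followed here. The series record speaks of a duplicate at day 175, and the values analysed may or may not include it.

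The wallaby is a marsupial whose young completes most of its development on milk. In phase 2B the young lives in the pouch and lets go of the teat at times, and in phase 3 it leaves the pouch and starts to graze, while the milk turns from rich in carbohydrate to rich in protein and lipid. A miRNA is a short RNA that guides a silencing complex to messenger RNAs, mainly through its seed, bases 2 to 8 from its 5′ end, and miRNAs with the same seed share many targets. In milk they are carried largely in vesicles such as exosomes, and the secretory epithelium, the myoepithelium, blood cells and serum are all possible sources.

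The value of a miRNA is its share, the percentage of all annotated miRNA reads of the library that were its own, rounded to 3 decimals. An entry of 0 stands for a miRNA that was present below 0.0005%, and an empty entry for an absent one. The depth is unknown from these values, and a share is exact only to 0.0005 percentage points either way. With 1 pooled library a day there is no replicate error, and no difference below carries a test. The difference between the libraries therefore cannot be told apart from differences between the females pooled or between library preparations. Fewer cells that release a miRNA and less RNA from each cell cannot be told apart either, and since shares add up to a whole, more of one miRNA lowers the shares of the others. Reads of near-identical miRNAs, such as let-7a and let-7f or miR-10a and miR-10b, could have been divided between them by the counting.

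Forward PCR primers of 5 milk miRNAs are shown because they carry the start of miRNAs that the results below turn on. Each is an added 5′ tail followed by the first bases of the mature miRNA written as DNA, and the capitals mark bases 2 to 8 of the miRNA, its seed.
miR-30a: ggcgcgtGTAAACAtcctcga
miR-148: ccgggctCAGTGCActacag
miR-22: ccaggcaAGCTGCCagttg
miR-141: cgcgcctAACACTGtctggta
miR-92: gcgcttATTGCACttgtcccg
The 5 seeds are all different. The seed of miR-148 is also that of miR-152, and the seed of miR-92 is also that of miR-25 and miR-32, all of which are listed in these libraries. The seed of miR-141 differs from the one that miR-200b, miR-200c and miR-429 have in common, although all 4 belong to the miR-200 family.

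The milk of day 250 was dominated by fewer miRNAs than that of day 175. The 3 most abundant miRNAs held 38.1% of the reads on day 175 and 56.2% on day 250, and the miRNAs beyond the first 10 took 18.9% and 7.46%. At day 175, 14 miRNAs were needed to reach 90% of the listed reads, and at day 250, 9 were. The effective number of miRNAs, the number of equally abundant miRNAs that would give the same Shannon diversity, was 16.8 at day 175 and 10.3 at day 250. Among the 3 earlier milk libraries it lay between 8.43 and 9.69, so that the library of day 175 was the most even of the 5 milk libraries.

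After scaling each library to 100%, 29.4% of miRNA reads lay with other miRNAs at day 250 than at day 175. The same quantity was 21.3%, 26.8% and 43.2% over the 3 earlier steps between milk libraries, in order of day. The miRNAs with a higher share at day 250 gained 29.6 percentage points in all. MiR-375 alone made up 54.1% of that gain, and together with miR-191 and miR-22 it made up 92.3%. The losses were spread over more miRNAs, and the 5 largest, those of miR-148, let-7f, miR-10b, miR-21 and let-7a, made up 61.9% of them.

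**Figure D1:**
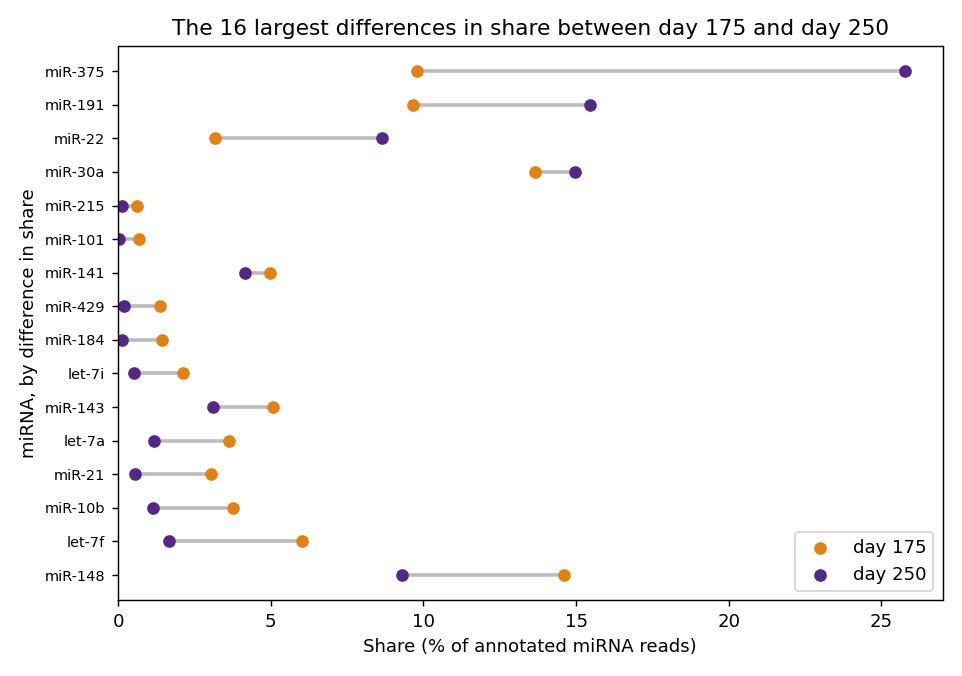
Shares of annotated miRNA reads in milk at day 175 (orange) and day 250 (purple) for the 16 miRNAs with the largest difference in share, ordered by the difference and joined by a grey line. MiR-375 moved farthest, from 9.78% to 25.8%, and 12 of the 16 lay lower at day 250.

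MiR-375, known from pancreatic islets and other secretory epithelia, took 9.78% of reads at day 175 and 25.8% at day 250. The ratio of the shares was 2.64, and its rank went from 3 to 1. MiR-22, which is widely expressed and abundant in muscle and blood-forming cells, took 3.18% and 8.64%. Its ratio was 2.72 and its rank went from 11 to 5, and it was the miRNA that entered the 10 most abundant. Of the 15 miRNAs with at least 1% at either day, these 2 were at least 2-fold higher at day 250 as a share of miRNA reads, against 7 of all 58 compared (12.1%). As a share of all reads the authors analysed miR-191 joined them, with a log2 difference of 1.41, and with each library centred on the mean log2 share of its miRNAs so did miR-191, with 1.63, and miR-30a, with 1.08. Over all 58, 11 and 19 were at least 2-fold higher on these scales.

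The other abundant miRNAs moved less, or down. MiR-191, which is abundant in many tissues, took 9.66% at day 175 and 15.5% at day 250, a ratio of 1.60. MiR-30a took 13.7% and 15.0%, and miR-181c and miR-181a, counted as one, took 5.70% and 5.83%. MiR-148, an abundant milk miRNA of many mammals that is known to target the DNA methyltransferase DNMT1, took 14.6% and 9.31%, and went from rank 1 to rank 4. MiR-141, a miR-200 family member that holds back the factors ZEB1 and ZEB2 in epithelium, took 4.96% and 4.17%. MiR-143, a miRNA of smooth muscle and other contractile cells, took 5.07% and 3.12%. Of the 10 most abundant miRNAs of each library 9 were the same, and miR-10b, at rank 9 and then 11, was the one that dropped out.

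Within one library the ratio of 2 miRNAs does not depend on what else the library holds. The ratio of miR-375 to miR-148 was 0.669 at day 175 and 2.77 at day 250, against 0.249 to 0.989 in the 3 earlier milk libraries. The ratio of miR-22 to miR-148 was 0.218 at day 175 and 0.928 at day 250, against 0.0752 to 0.137 earlier. For miR-30a to miR-148 it was 0.935 and 1.61, against 0.204 to 0.403 earlier. All 3 ratios were higher at day 250 than in any other milk library.

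For a comparison across miRNAs, those with at least 0.005% in the higher of the 2 libraries were kept, and log2 was taken of each percentage plus 0.001. Of the 91 miRNAs 58 passed this filter. Of these, 28 were at least 2-fold lower at day 250, which is 48.3% of those compared, and 7 were at least 2-fold higher, which is 12.1%. The other 23 lay within 2-fold. The median log2 difference, day 250 minus day 175, was -0.86, and all log2 differences below are on this scale. The reads behind these groups were uneven. The 28 lower miRNAs together took 25.7% at day 175 and 6.34% at day 250, the 7 higher ones 13.2% and 35.0%, and the 23 in between 56.8% and 56.2%. Across the 58 miRNAs the ranks of the 2 libraries correlated with a Spearman rho of 0.88, given as a description across miRNAs of single libraries.

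The count depends on what a share is taken of. With each library centred on the mean log2 share of its miRNAs, which raised the median by 0.95, 18 miRNAs were at least 2-fold lower and 19 at least 2-fold higher. As a share of all reads the authors analysed, with the median raised by 0.73, these numbers were 22 and 11, and with miR-375 left out of the denominator 25 and 9. The authors report many transfer RNA fragments in the later library, and name such contamination among their reasons for dividing by miRNA reads only. A share of all reads thus also depends on how much other RNA was sequenced. Counted in any size, 38 miRNAs were lower and 20 higher. These numbers became 28 and 30 on the centred scale, and 31 and 27 as a share of all reads analysed. Without miR-375 they were 35 and 23. The 58 compared there, also for the 25 and 9, were not all the same miRNAs, since miR-375 itself has no value. Under each of these scalings, with miR-191 left out and with each library rescaled to 100%, all 28 miRNAs at least 2-fold lower stayed lower. All 7 at least 2-fold higher stayed higher wherever they had a value, and 18 and 5 stayed at least 2-fold apart. MiR-375, among the 7 and the 5, has no value where it is left out of the denominator.

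**Figure D2:**
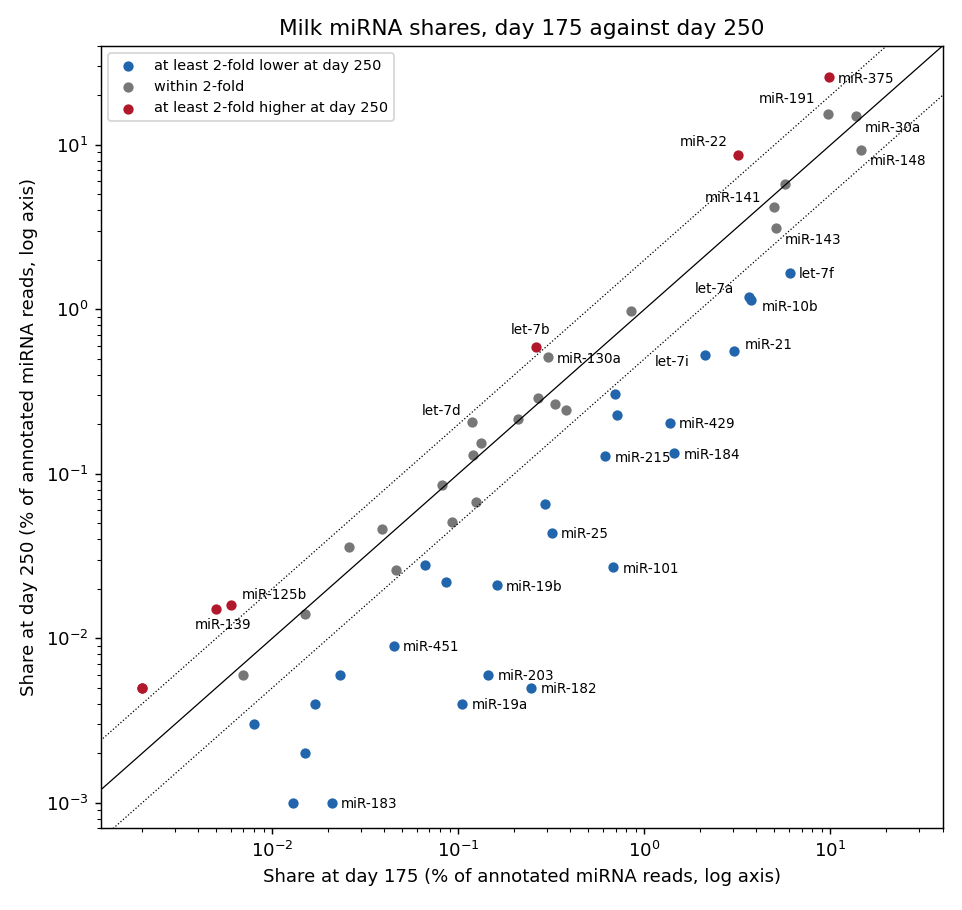
Share of each compared miRNA in milk at day 175 (horizontal) and day 250 (vertical), both in percent of annotated miRNA reads on log axes, with equality as a solid line and 2-fold as dotted lines. Blue points are the miRNAs at least 2-fold lower at day 250, red those at least 2-fold higher and grey those in between, and miR-204 and miR-190b, listed at 0 at day 250, are left out.

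The largest drops were found among miRNAs of middle abundance. MiR-182, made from the same precursor as miR-183 and miR-96 and known from sensory epithelia, took 0.247% at day 175 and 0.005% at day 250. The share was 49.4-fold lower, and the rounding leaves its ratio between 0.018 and 0.022. MiR-183 took 0.021% and 0.001%, and miR-96 had 0.001% and then no entry. Both members of this cluster that could be compared were at least 2-fold lower at day 250, as were 48.3% of all miRNAs compared, and miR-182 was at its lowest of the 5 milk libraries. At days 35, 75 and 120 it had taken 0.192%, 0.016% and 0.057%.

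MiR-101, known to target the histone methyltransferase EZH2, took 0.681% at day 175 and 0.027% at day 250, 25.2-fold less. It had taken 0.296%, 0.128% and 0.040% at days 35, 75 and 120, so that day 250 was below all earlier days. MiR-203, which limits the growth of skin epithelium as it differentiates, took 0.145% at day 175 and 0.006% at day 250, 24.2-fold less. It had been at 0.031% at days 35 and 120 and at 0.005% at day 75.

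MiR-19a and miR-19b belong to the miR-17-92 cluster, which is tied to cell proliferation. MiR-19a took 0.105% at day 175 and 0.004% at day 250, 26.2-fold less, and miR-19b took 0.161% and 0.021%, 7.67-fold less. MiR-25, a relative of the cluster, took 0.319% and 0.044%, 7.25-fold less. MiR-92 went the other way, with 0.849% at day 175 and 0.984% at day 250, although it shares its seed with miR-25 and its cluster with miR-19. The ratio of miR-92 to miR-25 was 2.66 at day 175 and 22.4 at day 250, against 5.75 to 12.4 in the 3 earlier milk libraries. That of miR-92 to miR-19b was 5.27 and 46.9, against 16.1 to 193 in the 3 earlier libraries, so that day 250 lay inside the earlier range. Day 175 had the lowest ratio of the 5 milk libraries in both pairs. MiR-20, a further cluster member, took 0.003% and 0.001%, too little to be compared.

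MiR-21, one of the most widely expressed miRNAs and one that increases in growing and inflamed tissue, took 3.04% at day 175 and 0.559% at day 250. The share was 5.43-fold lower. At days 35, 75 and 120 it had been 0.438%, 0.287% and 0.214%, so that day 175 stood apart and day 250 lay above the earlier days but nearer to them than to day 175. The serum libraries held 0.375% at day 120 and 0.212% at day 175.

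MiR-184 took 1.45% at day 175 and 0.133% at day 250, 10.9-fold less, and lay below all earlier days. MiR-204, known from the lens and the pigmented layer of the retina, took 0.038% at day 175 and had an entry of 0 at day 250. MiR-190b took 0.015% and was likewise listed at 0, and miR-460 took 0.013% and 0.001%. MiR-340 took 0.015% and 0.002%. MiR-184 was the only one of these 5 that was above 0.05% at either day.

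**Figure D3:**
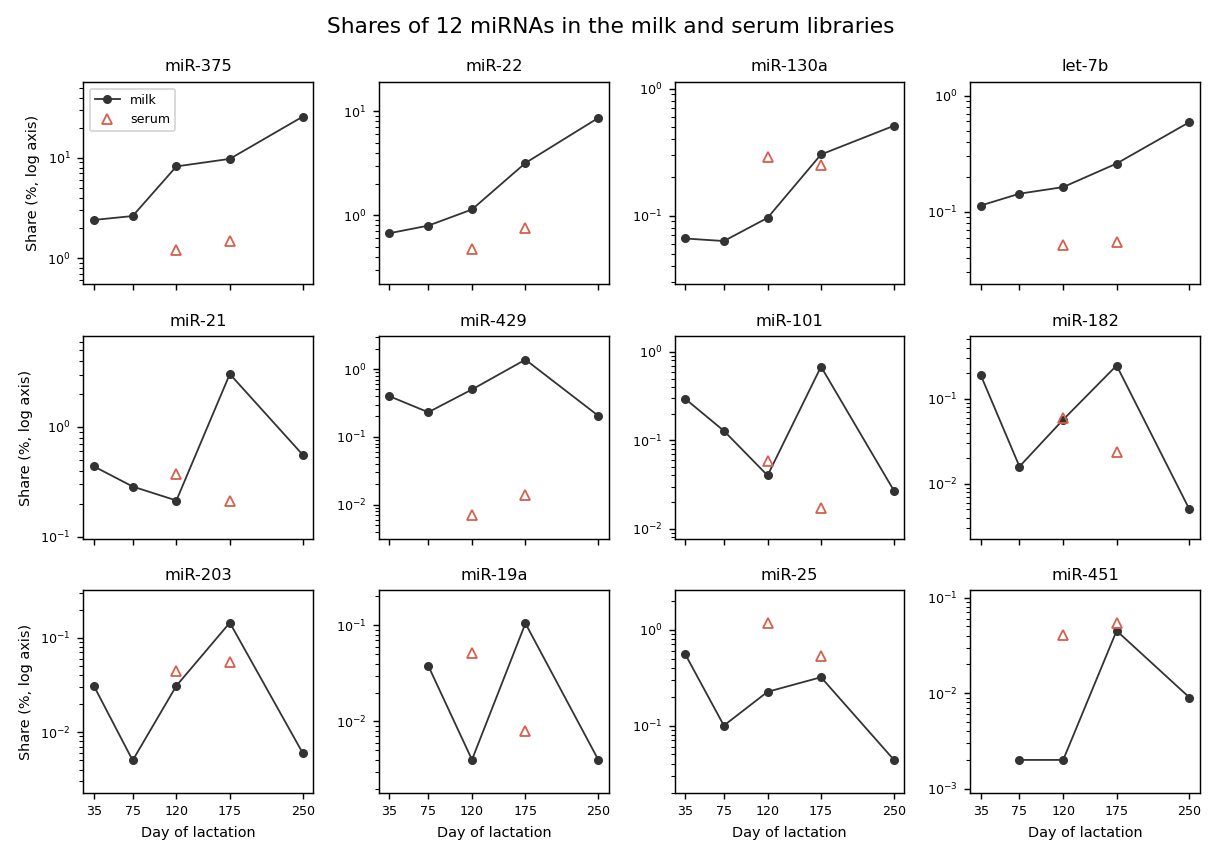
Shares of 12 miRNAs in the 5 milk libraries (black points, joined in order of day) and the 2 serum libraries (red triangles), in percent of annotated miRNA reads on log axes with a scale of its own in each panel, where entries at 0 or absent are not drawn. MiR-375, miR-22, miR-130a and let-7b are highest at day 250, and the other 8 are highest among the milk libraries at day 175, except miR-25, which is highest at day 35.

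Of the 28 miRNAs that were at least 2-fold lower at day 250, 17 had their highest share of the first 4 milk libraries at day 175. This held for 36 of all 58 compared, a like share. For 13 of the 28, and for 13 of all 58 compared, day 250 was the lowest of all 5 milk libraries. These were miR-182, miR-101, miR-184, miR-25, miR-429, miR-100, let-7i, miR-103, let-7f, miR-301, miR-10b, let-7a and miR-26. Both statements use the libraries that chose the 28, the first that of day 175 and the second those of days 175 and 250. The step from day 120 to day 175 had 6 lower and 30 higher of 59, 10.2% and 50.8%.

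At the other end, 13 of the 58 miRNAs had their highest share of all 5 milk libraries at day 250. Apart from miR-375, miR-22 and miR-30a they took less than 1%. Let-7b took 0.260% at day 175 and 0.591% at day 250, against 0.113% to 0.163% earlier. MiR-130a took 0.303% and 0.510%, against 0.063% to 0.096% earlier. MiR-125b, which is abundant in nervous tissue and in muscle, took 0.006% and 0.016%, and miR-139 took 0.005% and 0.015%. MiR-29a, known to target collagens, and miR-122, the main miRNA of liver, each took 0.002% and 0.005%. They sit exactly at 2-fold on the scale used, and with the rounding of such small shares neither is fixed above 2-fold. The other 5 higher miRNAs are, and so are 27 of the 28 lower ones, all but miR-23a. MiR-29a was highest at day 250, but miR-122 was not, with 0.040% at day 35 and 0.008% at day 120.

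The let-7 family, which shares one seed and is known for timing differentiation during development, had members on both sides. Of the 6 members listed, 3 were at least 2-fold lower, 1 was at least 2-fold higher and 2 lay in between, against 48.3% lower and 12.1% higher over all miRNAs compared. The median log2 difference was -0.78 against -0.86 over all. Let-7f took 6.04% at day 175 and 1.67% at day 250, let-7a 3.65% and 1.19%, and let-7i 2.12% and 0.525%. Their log2 differences were -1.85, -1.61 and -2.01, and each of these was below all earlier milk libraries. Let-7g took 0.208% and 0.215%, let-7d 0.119% and 0.206%, and let-7b 0.260% and 0.591%, and each of these was above all earlier ones. The ratio of let-7f to let-7b was 23.2 at day 175 and 2.83 at day 250, against 33.0 to 68.0 before. In all, the family took 12.4% and 4.40% of miRNA reads. The split of the family depends on the scaling. On the centred scale 1 member, let-7i, was at least 2-fold lower and 3, let-7b, let-7d and let-7g, at least 2-fold higher. As a share of all reads analysed 2 were lower, let-7f and let-7i, and 2 higher, let-7b and let-7d. Over all 58 compared, 18 were lower and 19 higher on the centred scale, and 22 and 11 as a share of all reads analysed.

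The miR-200 family marks epithelium. MiR-429 took 1.38% at day 175 and 0.205% at day 250, 6.71-fold less, while miR-200b took 0.124% and 0.067% and miR-200c 0.039% and 0.046%. Of the 4 members listed only miR-429 was at least 2-fold lower, against 48.3% of all miRNAs compared, and the median log2 difference was -0.57 against -0.86 over all. MiR-200b, miR-200c and miR-429 share a seed, and miR-200b and miR-429 lie close together in the genomes of other mammals. The ratio of miR-141 to miR-429 was 3.61 at day 175 and 20.3 at day 250, against 0.864 to 7.54 earlier. The direction of miR-141 turned, to higher at day 250, on the centred scale, as a share of all reads analysed and with miR-375 left out of the denominator, and that of miR-200b turned on the centred scale.

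Pairs that stayed together were also found. MiR-10a and miR-10b, which lie inside the HOX gene clusters, were 3.13-fold and 3.28-fold lower at day 250, and their ratio was 5.26 at day 175 and 5.03 at day 250. Neither stayed at least 2-fold lower on the centred scale or as a share of all reads analysed. MiR-148 and miR-152, with the same seed, were 1.57-fold and 1.80-fold lower, with log2 differences of -0.65 and -0.84. The direction of both turned on the centred scale, and that of miR-148 turned also as a share of all reads analysed, as was the case for miR-143. MiR-181b, with 0.267% and 0.290%, had a log2 difference of 0.12, and the entry that combines miR-181c with miR-181a one of 0.03. MiR-130a and miR-301, which share a seed, parted, as miR-301 took 0.017% and 0.004%.

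**Figure D4:**
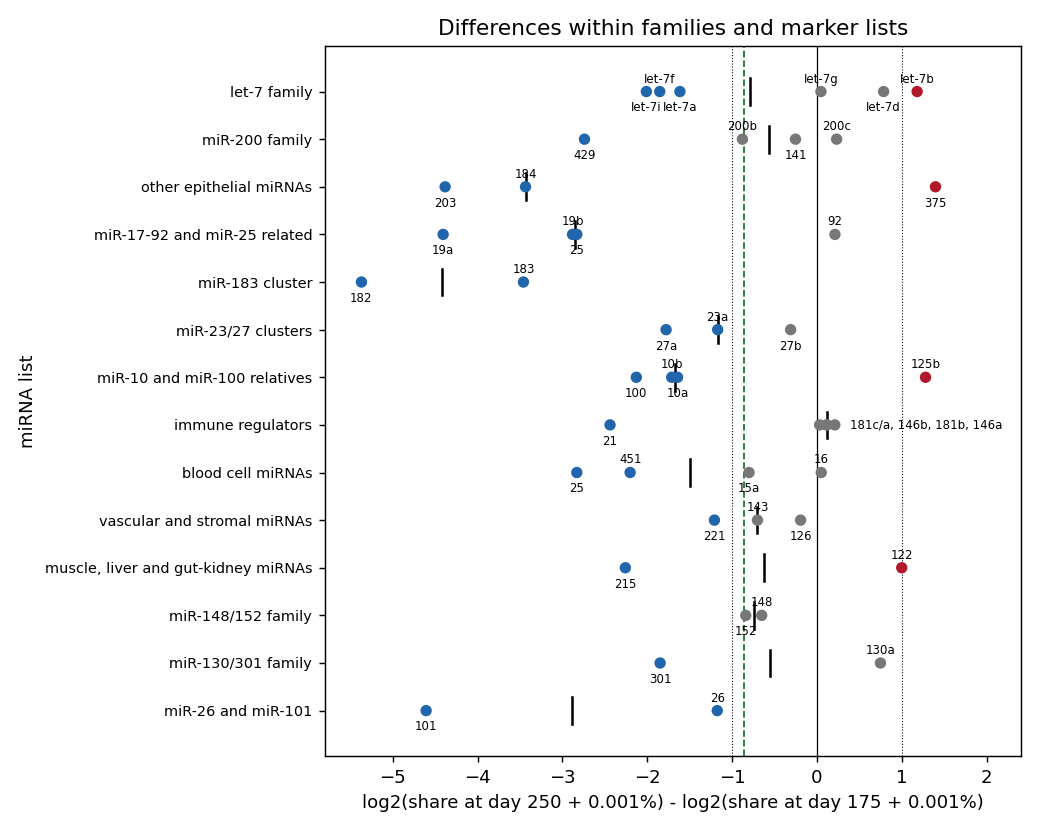
Log2 difference in share, day 250 minus day 175 with 0.001% added to each share, for the compared members of each list with at least 2 of them, where black bars are list medians, the green dashed line is the median over all 58 miRNAs and dotted lines mark 2-fold. Blue, red and grey points are at least 2-fold lower, at least 2-fold higher and in between, and 9 of the 14 lists, the let-7, miR-17-92 and miR-10 lists among them, hold members on both sides of 0.

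Of the immune regulators, miR-21 was the 1 of 5 compared that was at least 2-fold lower, against 48.3% of all miRNAs compared. MiR-146a, which damps NF-kB signalling, took 0.132% and 0.153%, miR-146b 0.120% and 0.130%, and the median log2 difference of the list was 0.11 against -0.86 over all. On the centred scale 3 of the 5, miR-146a, miR-146b and miR-181b, were at least 2-fold higher, against 19 of all 58. MiR-223, a miRNA of neutrophils and other myeloid cells, was at 0.001% at both days.

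Among the markers of other cells, those of smooth muscle, myoepithelium and stroma were abundant, with 5.07% at day 175 and 3.12% at day 250 in all, nearly all as miR-143. Of the 4, miR-145 was at 0.001% and then 0, and miR-199a and miR-214 were not above 0 at either day. The short marker sets of red cells, white cells, endothelium, liver and skeletal or heart muscle each took at most 0.155%. A longer list of 8 blood cell miRNAs, which holds miR-25, took 0.496% at day 175 and 0.166% at day 250. The blood cell sum thus depends on the miRNAs picked. MiR-451, the main miRNA of red blood cells, took 0.045% at day 175 and 0.009% at day 250, and miR-144, made from the same transcript, 0.002% and 0. Both had been lower or absent at day 120, with miR-451 at 0.002%. The white cell markers together took 0.134% at day 175 and 0.155% at day 250, nearly all as miR-146a. Of them miR-150 had 0.001% at day 175 and no entry at day 250, and miR-142 the reverse. The endothelial miR-126 took 0.007% and 0.006%. The muscle markers miR-1, miR-133a and miR-499 were absent from both libraries. The 6 epithelial markers were all above 0 at both days and together took 6.65% and 4.49%, against 0.082% in serum at day 175. This sum depends on the miRNAs picked, since the list of other epithelial miRNAs, which holds miR-375 and miR-184, took 11.4% and 25.9%. Of the 3 compared members of that list only miR-375 was higher, with 9.78% and 25.8%. The other 2, miR-203 and miR-184, were at least 2-fold lower, as were 48.3% of all miRNAs compared. The part of blood-derived RNA in the differences was not tested.

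Serum offers a further view of the same miRNAs. In the libraries of day 120, which the comparison does not use, 30 of the compared miRNAs had a higher share in serum than in milk and 27 a lower one, with absent entries as 0. Of the 30, 18 were at least 2-fold lower in milk at day 250 than at day 175 and 4 at least 2-fold higher, with a median log2 difference of -1.68. Of the 27, 9 were lower and 3 higher, with a median of -0.64. Over all 58 compared 48.3% were lower and the median was -0.86, and miR-204, at 0 or absent in both libraries of day 120, was in neither group. Summed over the 30, milk held 19.3% at day 175 and 8.19% at day 250, and over the 27 it held 76.4% and 89.4%. MiR-375, among the 27, went from 9.78% to 25.8%, a larger rise than that of the sum. Without miR-375 the rest of the 27 summed to less at day 250 than at day 175. MiR-215, a miRNA of gut and kidney that took 2.71% of serum miRNA reads at day 175, had 0.616% in milk at day 175 and 0.128% in milk at day 250. MiR-100, with 0.470% in that serum library, took 0.292% and 0.066% in milk. These are counts over miRNAs of single libraries and carry no test.

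Further members at least 2-fold lower were miR-103, which has been tied to insulin signalling, with 0.086% and 0.022%, and miR-26 with 0.692% and 0.306%. MiR-221 took 0.066% and 0.028%. MiR-27a took 0.023% and 0.006% and miR-23a, which lies in the same cluster, 0.008% and 0.003%, while miR-27b, from the related cluster, took 0.330% and 0.266%. MiR-23a and miR-26, with log2 differences of -1.17, lay nearest to the 2-fold limit inside it, and miR-200b, with -0.88, nearest outside it. On the centred scale miR-103, miR-26, miR-221, miR-27a and miR-23a did not stay at least 2-fold lower. Nor did miR-26, miR-221 and miR-23a as a share of all reads analysed or with miR-375 left out of the denominator. MiR-16 and miR-15a, which share a seed and target BCL2, took 0.082% and 0.085%, and 0.046% and 0.026%. MiR-186 took 0.378% and 0.243%, miR-128 0.026% and 0.036%, and miR-210, the miRNA of low oxygen, 0.015% and 0.014%. The directions of miR-186, miR-210, miR-27b and miR-126 turned, to higher at day 250, on the centred scale and as a share of all reads analysed. Those of miR-210 and miR-126 turned also with miR-375 left out of the denominator. That of miR-15a turned on the centred scale.

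In the listing itself, 76 miRNAs were listed at both days, 5 at day 175 only and 10 at day 250 only. The 5 were miR-150, miR-107, miR-218, miR-96 and miR-455, none above 0.002%. Of the 10, miR-140, miR-142 and miR-193 were at 0.001%. The other 7, miR-187, miR-196b, miR-1547, miR-18, miR-138, miR-29b and miR-365, were listed at 0. The library of day 175 had no entry at 0, its lowest being 0.001%, while 16 entries of the library of day 250 were at 0. The lists of the 2 days thus do not reach equally far down, and no miRNA that was listed on 1 day only exceeded 0.002%. The listed shares summed to 95.8% at day 175 and 97.6% at day 250, and the miRNAs that make up the remainder were not analysed here.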

How the data were processed

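Small RNA was isolated from skim milk and sequenced on an Illumina HiSeq. The authors trimmed adaptors, counted known miRNAs (miRBase) with miRanalyzer, and divided by the annotated miRNA reads of the library. The deposited values are these shares in percent, to 3 decimals.

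From the deposited percent values the ranks, ratios, sums and log2 differences were computed with Python 3.11.15, numpy 2.4.6, pandas 2.3.3, scipy 1.17.1 and matplotlib 3.10.9, with absent entries as 0. The counting of 2-fold differences was tried on simulated data with planted 4-fold differences and no added noise. This checks the counting step and not calls near 2-fold. As there was 1 library a day, no test was run. The miRNAs named are the 10 most abundant of each library, the 10 largest differences each way among those of at least 0.05%, members of the lists, those listed on 1 day only, and those highest or lowest at day 250. Others were named after their values were seen. The members and lists were chosen with earlier results of these data known. Mature sequences were not analysed here, and the primers come from the study's supplement, with the end of each tail set by hand from the known start of the miRNA. Alternatives were other pseudocounts, limits, folds and denominators. The denominator of all analysed reads used the aligned percentages that the study states, since the deposited values do not hold them.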

Additional observations from a re-analysis of the deposited data

How the results depend on the processing

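No paired analysis was possible because each day has 1 library, and for the same reason no library could be left out. The 28 miRNAs at least 2-fold lower became 18 on the centred log ratio and 18 at 4-fold, and between 19 and 42 under the other alternatives. The 7 miRNAs at least 2-fold higher became 3 with a pseudocount of 0.01% or a limit of 0.05%, 11 with a limit of 0.001% or as a share of all analysed reads, 19 on the centred log ratio, 20 of 56 against day 120 (chosen after the data were examined), where 21 were at least 2-fold lower, and 0 at 4-fold. No test stands behind this 0. The median log2 difference of -0.86 became -0.72 with the pseudocount of 0.01%, -0.58 without miR-375, 0.095 on the centred log ratio, -0.13 as a share of all analysed reads and 0.19 against day 120. With at least 0.005% asked on both days, 48 miRNAs were shared. The 10 most abundant miRNAs of day 250 took between 88.2% and 92.4%, and the reads that lay with other miRNAs were 26.9% without miR-375. Under the other pseudocounts and denominators none of the miRNAs named by the rules and at least 2-fold apart changed sign. MiR-375 has no value where it was left out. Against day 120, 6 of the 28 lower miRNAs, miR-19b, miR-21, miR-215, miR-451, miR-27a and miR-221, were higher at day 250, and 1 of the 7 higher ones, miR-122, was lower. Shares of 0.002% or less are within a few steps of the rounding.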

Other observations

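The miRNAs below 0.005% at both days, 33 of the 91, summed to 0.040% of reads at day 175 and to 0.025% at day 250. Among them were 4 of the 5 listed miRNAs that were first described outside placental mammals. MiR-1549 took 0.001% and 0.004%, and miR-1546 0.004% and 0.003%. MiR-1541 was at 0.001% at day 175 and listed at 0 at day 250, and miR-1547 was absent at day 175 and listed at 0 at day 250. MiR-205a, a miRNA of basal epithelium, took 0.001% and 0.002%, and miR-145, the partner of miR-143 in its cluster, 0.001% and 0. MiR-143 was thus present at a far higher share than miR-145 at both days.

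By abundance, 7 of the 15 miRNAs with at least 1% at either day were at least 2-fold lower at day 250, 10 of the 21 between 0.1% and 1%, and 10 of the 18 between 0.01% and 0.1%. At least 2-fold higher were 2, 1 and 2 in these bands. Of the 4 between 0.005% and 0.01%, 1 was lower and 2 were higher, miR-29a and miR-122, which sit at the 2-fold limit and are not fixed past it by their rounded shares. Over all 58 compared 48.3% were lower and 12.1% higher. The median log2 difference was -0.70, -0.88, -1.49 and 0.40 in the 4 bands, against -0.86 over all 58 miRNAs compared.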
